A study of Mus musculus with 8 samples.

Results

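Immediate-early genes and the feedback inhibitors of the extracellular signal-regulated kinases (ERK) were followed in mouse myeloid cells labelled as Meis1 deleted. A list of 40 genes was named from their known roles, with earlier results of these data known. It was matched to probe sets that the platform annotation gives exactly 1 gene symbol. This found 38 of the 40 genes, among 17097 genes so named on the array, with 65 probe sets between them; Dusp5 and Zfp36 had no such probe set here. The 38 genes comprise 11 AP-1 and Egr transcription factors, 11 ERK feedback inhibitors and 16 others.

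The cells were bone marrow cells of C57BL/6 mice with a Rosa26-Cre-ERT2 knock-in, a Cre recombinase that tamoxifen switches on, transformed by retroviruses carrying Hoxa9 and a floxed Meis1. Both groups carried the Cre and the Hoxa9 virus and were cultured with interleukin-3 at 5 ng/ml in a medium (Iscove's) holding 10% serum. The group called Meis1 deleted (4 arrays) had received 2 μM 4-hydroxytamoxifen, which cuts out the Meis1 cDNA, and the group called Hoxa9 and Meis1 (4 arrays) had not, so the effects of the drug and of active Cre cannot be told apart from that of losing Meis1. The labels do not say whether the 4 samples of a group were separate cultures or how long after the drug they were taken, so the p-values reflect the spread among the samples at hand, which may be technical.

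Immediate-early genes are switched on by growth factor and cytokine signals without new protein synthesis, largely through ERK acting on the partners of serum response factor and through kinases acting on CREB and ATF proteins. Many encode transcription factors, among them the Fos and Jun proteins that pair to form AP-1, and the Egr zinc finger proteins. A further set, the dual-specificity phosphatases (Dusp) and the Sprouty, Spred and Errfi1 proteins, dampens the signal that induced it. In myeloid cells Egr1 and Egr2 are known for roles in the macrophage fate, and interleukin-3 is a source of ERK signal.

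Promoter sequence is shown for 3 genes that rose and 2 that fell, because each holds letters of an element through which such genes are induced. The 250 bases before a RefSeq start in GRCm38.p6 are given 5′ to 3′ on the gene's strand for Fos (chr12:85473640-85473889, plus strand), Atf3 (chr1:191183334-191183583, minus strand), Egr2 (chr10:67537316-67537565, plus strand), Errfi1 (chr4:150854820-150855069, plus strand) and Srf (chr17:46556163-46556412, minus strand). Capitals mark every match, on either strand, to the motifs searched: the CArG box bound by serum response factor, TGACGT of CREB and ATF sites, TGANTCA of AP-1 sites, CCGGAAGT of ETS sites, GCGTGGGCG of Egr sites and TGACAG of Meis sites.
Fos: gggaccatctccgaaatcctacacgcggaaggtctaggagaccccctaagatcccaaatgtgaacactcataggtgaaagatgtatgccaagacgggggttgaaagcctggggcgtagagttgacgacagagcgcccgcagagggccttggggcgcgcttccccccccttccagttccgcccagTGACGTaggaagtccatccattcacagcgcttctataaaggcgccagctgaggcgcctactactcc
Atf3: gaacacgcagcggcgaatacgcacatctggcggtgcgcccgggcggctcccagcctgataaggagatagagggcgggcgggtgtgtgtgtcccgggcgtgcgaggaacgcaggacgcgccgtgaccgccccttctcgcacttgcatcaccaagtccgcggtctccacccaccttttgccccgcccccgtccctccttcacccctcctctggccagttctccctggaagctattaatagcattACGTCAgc
Egr2: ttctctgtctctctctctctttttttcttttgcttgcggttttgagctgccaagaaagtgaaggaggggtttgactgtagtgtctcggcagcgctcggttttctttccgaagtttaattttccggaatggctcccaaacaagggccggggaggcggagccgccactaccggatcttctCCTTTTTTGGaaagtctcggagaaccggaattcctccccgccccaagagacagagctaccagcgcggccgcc
Errfi1: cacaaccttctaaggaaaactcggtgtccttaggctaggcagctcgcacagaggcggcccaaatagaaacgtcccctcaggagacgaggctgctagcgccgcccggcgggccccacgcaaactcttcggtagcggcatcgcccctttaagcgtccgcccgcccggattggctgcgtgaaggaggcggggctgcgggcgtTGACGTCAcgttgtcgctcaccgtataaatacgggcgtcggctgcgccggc
Srf: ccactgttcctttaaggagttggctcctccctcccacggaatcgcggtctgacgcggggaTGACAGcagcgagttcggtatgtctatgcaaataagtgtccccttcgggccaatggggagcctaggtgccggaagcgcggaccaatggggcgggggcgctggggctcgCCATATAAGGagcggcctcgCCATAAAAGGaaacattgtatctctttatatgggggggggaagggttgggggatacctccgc

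The TGACGT letters began 66 bases before the Fos start and 51 bases before the Errfi1 start, where both strands match and overlap, and 8 bases before the Atf3 start on the other strand. A CArG box began 72 bases before the Egr2 start, and 2 began 82 and 62 bases before the Srf start, with TGACAG 190 bases before it. Windows of other Egr2 starts, not printed here, held TGACGT as well as a CArG box, so Egr2 is counted below for both. TGACGT was held by 10 of the 31 members with a promoter window at hand (32.3%), in any of their windows, against 7.29% of all 27025 genes with one. No window was at hand for Egr1, Egr3, Fosl1, Dusp4, Spry4, Etv4, Ier2, Phlda1 and Hbegf, so these were not searched. By direction of change, TGACGT was present in 3 of 7 members that rose, in 4 of 12 that fell and in 2 of 9 that did not pass. A CArG box was held by 4 members (12.9% against 1.62%), of which Egr2 rose, Srf fell and Dusp5 and Zfp36 were not measured. The other motifs were found in 2 members for TGANTCA (6.45% against 7.82%), 4 for TGACAG (12.9% against 18%), 1 for GCGTGGGCG (3.23% against 0.622%) and 0 for CCGGAAGT (3.23% of all genes). Genes with several starts have several windows, and a match is a description of letters only.

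Levels are log2 expression values, and every change is the log2 fold change of Meis1 deleted minus Hoxa9 and Meis1 with limma's standard error (SE). A gene passed the test with a Benjamini-Hochberg adjusted p under 0.05 over 11836 genes, each standing on its probe set with the highest mean. Of the 38 members 36 were tested, because Etv4 and Ier5 lay under the filter on low values (a mean of 4.29). Errfi1 and Dusp4 passed that filter only through the untreated group, so their difference from it was partly built in.

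Of the 36 tested members 17 fell and 7 rose. Among all genes tested 17.5% fell and 18.1% rose (35.5% in either direction), against 47.2% and 19.4% of these members, so the share that rose lay near the background. The members were chosen with earlier results of these data known, so the larger share that fell is a description and no test of the set. The median change over the members was -0.20, against -0.0044 over all genes. The groups did not overlap for 24 members (66.7%, against 38.6% of all genes). At least 2-fold changes numbered 4 rises (Egr2, Zfp36l1, Atf3 and Fos) and 4 falls (Errfi1, Phlda1, Fosl2 and Fosb), where 3.19% of all genes changed by as much (2.51% rose and 0.676% fell).

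**Figure D1:**
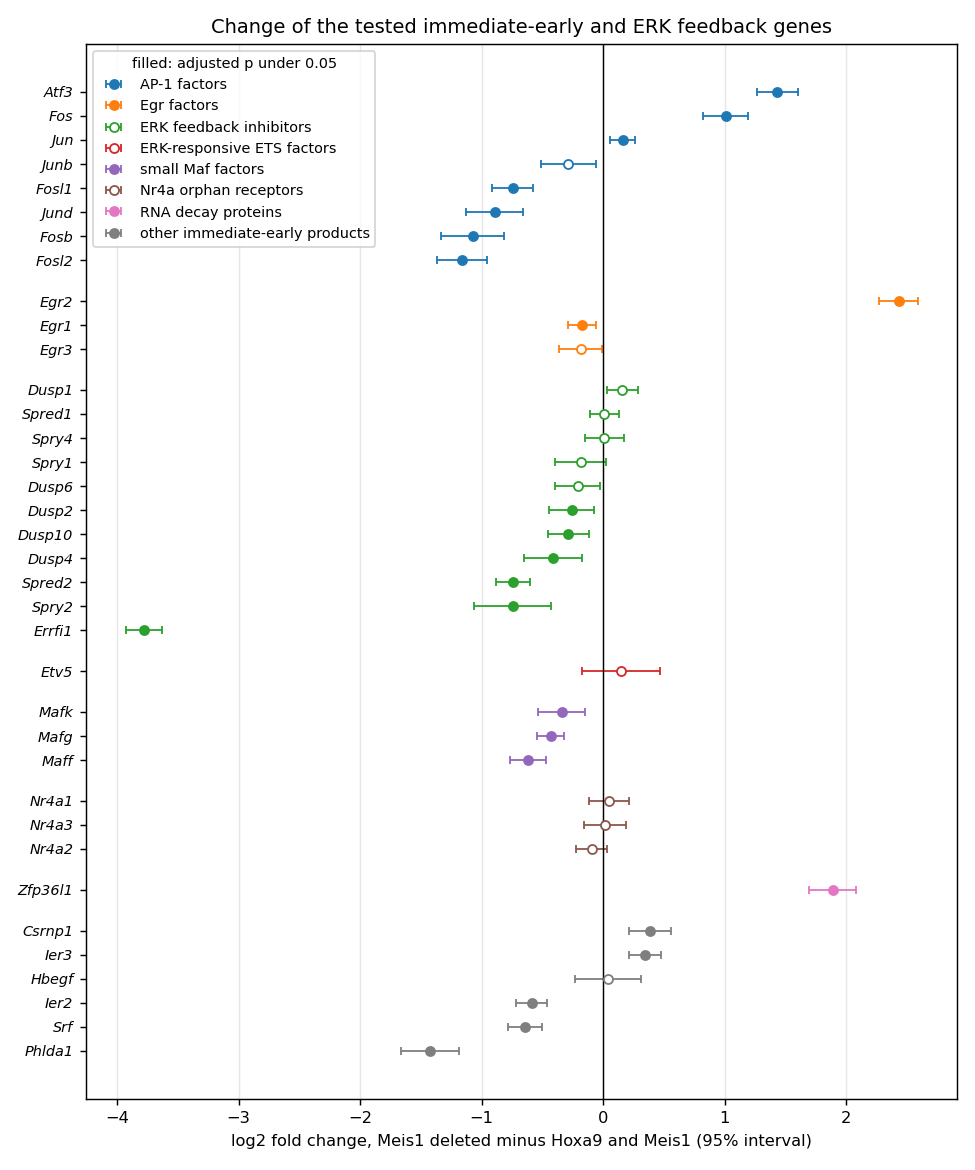
The log2 fold change of each tested member (x axis, Meis1 deleted minus Hoxa9 and Meis1) is plotted by role, with its 95% interval from limma; filled points passed the test. Errfi1 lies far to the left of all others at -3.78, Egr2 farthest to the right at 2.43, and the Nr4a genes straddle 0.

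AP-1 genes moved in both directions, and members of the same protein family moved apart. Among the 8 AP-1 genes, Fos, Atf3 and Jun rose, and Fosb, Fosl1, Fosl2 and Jund fell; Junb did not pass. In all, 4 of the 11 AP-1 and Egr factors rose (36.4%, against 18.1% of all genes) and 5 fell (45.5%, against 17.5%), with a median change of -0.18. By limma at an unadjusted p under 0.05 these counts were 4 higher and 7 lower, where 22.2% of all genes were higher and 22.2% lower.

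Fos, the founding partner of Jun in AP-1, read 7.75, 7.73, 7.81 and 7.58 in Meis1 deleted replicates 1 to 4 and 6.85, 6.83, 6.57 and 6.60 in Hoxa9 and Meis1 replicates 1 to 4. Every deleted array stood above every untreated one. The log2 fold change was 1.01 ± 0.08 (SE; adjusted p = 1.29e-05), a 2.01-fold rise.

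Its 3 relatives went the other way. Fosl2 (Fra-2) read 8.54, 8.17, 8.16 and 8.34 after the deletion and 9.39, 9.39, 9.50 and 9.58 without it. That is a 2.24-fold fall (-1.16 ± 0.09, adjusted p = 9.54e-06), with a wide gap between the groups. A weaker second probe set for Fosl2 read 4.72 ± 0.11 (SD, n = 4) and 4.82 ± 0.08 and did not pass (adjusted p = 0.319 over all probe sets with no filter). In that wider comparison 18.8% of all probe sets passed, and 20.8% of those with 1 symbol; of the members' 65 probe sets 11 were higher and 21 lower. Fosb, which has a short form that lacks the activation domain, read 4.42, 4.43, 4.13 and 4.27 against 5.56, 5.60, 5.19 and 5.19, a change of -1.07 ± 0.11 (adjusted p = 8.73e-05). After the deletion Fosb lay below 4.69, the lowest of the array medians, and the size of its change is uncertain; with an offset of 64 it was -0.34. Fosl1 (Fra-1), commonly raised by sustained ERK activity, fell from 6.08 ± 0.04 to 5.33 ± 0.15 (-0.74 ± 0.07, adjusted p = 5.74e-05). Its second probe set, under the filter, fell too (-0.28 ± 0.07, adjusted p = 0.0144 over all probe sets with no filter).

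Of the Jun genes, Jund fell, and it is the Jun family gene usually least tied to induction. It read 9.52, 9.61, 9.64 and 9.59 after the deletion and 10.73, 10.59, 10.42 and 10.20 without it (-0.89 ± 0.10, adjusted p = 1.42e-04). The groups did not overlap, and the untreated arrays spread more than the deleted ones. A second Jund probe set lay under the filter, at 3.91 ± 0.14 and 3.90 ± 0.04. Jun itself rose by a small amount on its main probe set, from 8.42 ± 0.02 to 8.58 ± 0.06 (0.16 ± 0.04, adjusted p = 0.0211). On its other probe set Jun read 7.83, 7.69, 7.77 and 7.69 against 6.96, 6.91, 6.95 and 7.04, a larger rise of 0.78 ± 0.05 (adjusted p = 2.75e-06 over all probe sets with no filter). Both probe sets showed every deleted array above every untreated one, but they do not give the same size. The call on the main probe set was lost without Meis1 deleted replicate 3 or 4 or Hoxa9 and Meis1 replicate 1 or 3 (adjusted p from 0.0530 to 0.0624). Junb, often a brake on Jun activity, read 5.96 ± 0.12 and 6.25 ± 0.19 and just missed the threshold (-0.29 ± 0.10, adjusted p = 0.0503). Leaving out replicate 3 of the untreated group brought it past the threshold (-0.36, adjusted p = 0.0195). So did a block for the bioB sets of arrays described further on (-0.35, adjusted p = 0.00522).

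Atf3, a stress-induced factor that can pair with Jun and often represses, rose in all arrays. It read 8.34, 8.09, 8.25 and 7.99 after the deletion and 6.69, 6.80, 6.69 and 6.75 without it. The gap of more than 1 unit between the groups corresponds to a 2.70-fold rise (1.43 ± 0.08, adjusted p = 7.08e-07).

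The Egr genes split as well. Egr2 read 7.33, 7.06, 7.13 and 7.22 after the deletion and 4.78, 4.80, 4.81 and 4.62 without it. This was a 5.39-fold rise (2.43 ± 0.07, adjusted p = 9.99e-09), and the untreated level lay close to the array medians (4.69 to 4.74). The size is uncertain at such a level: with an offset of 64 on the linear scale the change was 1.20. A second Egr2 probe set rose too, with 6.97, 6.91, 6.96 and 6.98 against 4.84, 4.57, 4.83 and 4.83 (2.19 ± 0.06). Egr1 was instead slightly lower, at 9.75, 9.67, 9.61 and 9.58 against 9.83, 9.78, 9.89 and 9.81. The Egr1 groups were separated by little (-0.17 ± 0.05, adjusted p = 0.0264), and the call was lost without Meis1 deleted replicate 3 or 4 or Hoxa9 and Meis1 replicate 1, 3 or 4, with adjusted p between 0.0511 and 0.0774. Egr3 read 5.81 ± 0.15 and 6.00 ± 0.07 and did not pass (-0.18 ± 0.08, adjusted p = 0.102). Nab1 and Nab2, corepressors that bind Egr proteins, both fell. Nab2 went from 6.76 ± 0.09 to 5.81 ± 0.12 (-0.94 ± 0.07, adjusted p = 8.13e-06) and Nab1 from 10.25 ± 0.04 to 9.86 ± 0.05 (-0.39 ± 0.05, adjusted p = 1.50e-04).

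**Figure D2:**
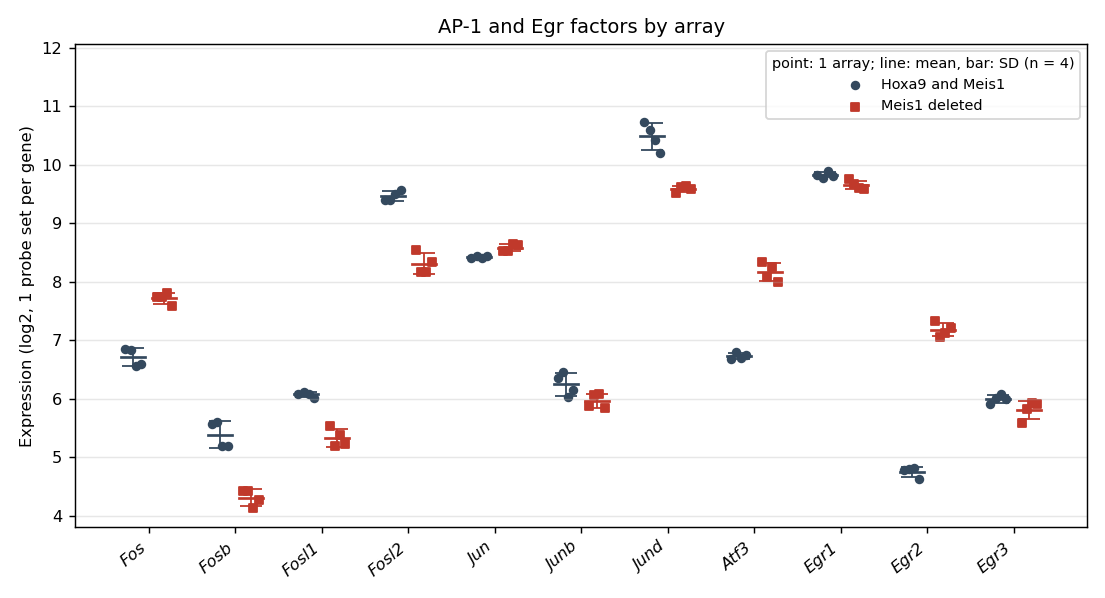
Log2 expression (y axis) of the 11 AP-1 and Egr genes on each array, with circles for Hoxa9 and Meis1 and squares for Meis1 deleted; lines are means and bars SDs over 4 arrays. Fos, Atf3 and Egr2 sit higher after the deletion, Fosb, Fosl1, Fosl2 and Jund sit lower, and the Junb and Egr3 groups overlap.

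ERK feedback inhibitors changed downward or did not pass. Of 11 tested, 6 fell (54.5%, against 17.5% of all genes) and 0 rose (against 18.1%), with a median of -0.26. By limma, 7 were lower and 1 higher at an unadjusted p under 0.05, where 22.2% of all genes were lower and 22.2% higher. The 6 falls were those of Errfi1, Spry2, Spred2, Dusp2, Dusp4 and Dusp10. Errfi1 and Dusp4 passed the filter only through the untreated group, so the share that fell was partly built in.

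Errfi1 (Mig-6), an adaptor that binds and inhibits ERBB receptor kinases, read 3.77, 3.83, 3.90 and 4.00 after the deletion and 7.54, 7.61, 7.70 and 7.76 without it. All deleted arrays lay under the filter and under the array medians, and the untreated arrays stood well above both. The measured change was a 13.7-fold fall (-3.78 ± 0.07, adjusted p = 3.48e-10), whose size is uncertain because the deleted level is near the floor of the table. With an offset of 64 added on the linear scale the change was -1.75. Receptors that Errfi1 acts on did not pass the test. Egfr read 5.68 with and 5.75 without the deletion (95% interval of the change -0.23 to 0.10), Erbb2 4.67 and 4.65 (-0.22 to 0.25), and Erbb3 4.32 and 4.31 (-0.09 to 0.11). Erbb2 and Erbb3 lay under 4.69, the lowest of the array medians, so the lack of a change in them says little. Hbegf, a ligand of Egfr and a member of the list, read 5.71 ± 0.21 and 5.67 ± 0.20 (0.04 ± 0.12, adjusted p = 0.827). A second Hbegf probe set pointed the other way, at -0.20 ± 0.07 (adjusted p = 0.0591 over all probe sets with no filter, and 0.0447 over the kept ones).

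Sprouty and Spred proteins restrain the steps between receptors and RAF, and within each family 1 gene fell while the others did not pass. Spry2 read 7.06, 7.03, 7.26 and 6.81 after the deletion and 7.99, 8.05, 7.58 and 7.52 without it. The groups did not overlap, although the untreated arrays fell into a high and a low pair (-0.75 ± 0.14, adjusted p = 0.00257). A weaker second Spry2 probe set read 4.90 ± 0.18 and 4.87 ± 0.17 and did not pass (0.03 ± 0.10, adjusted p = 0.878 over all probe sets with no filter). Spry1 read 6.45 ± 0.16 and 6.64 ± 0.14 (-0.18 ± 0.09, adjusted p = 0.164), a value that passed with the bioB block (-0.25, adjusted p = 0.00902), and Spry4 read 5.05 ± 0.09 and 5.04 ± 0.12 (95% interval of the change -0.15 to 0.17).

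Spred2 was lower in every deleted array, at 8.17, 7.99, 7.93 and 7.94 against 8.78, 8.81, 8.71 and 8.70. The change was -0.74 ± 0.06 (adjusted p = 1.71e-05), and a second kept probe set passed as well (-0.38 ± 0.06, adjusted p = 0.00118 over all probe sets with no filter). The other 3 Spred2 probe sets did not pass there, with changes of -0.16, -0.33 and -0.30. Its relative Spred1 read 8.09 ± 0.04 and 8.08 ± 0.08, with an interval of -0.11 to 0.13. None of the other 4 Spred1 probe sets passed either, with adjusted p from 0.101 to 0.872 over all probe sets with no filter.

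The Dusp phosphatases remove phosphate from ERK and related kinases. Of the 5 on the list that were tested 3 passed, where 35.5% of all genes passed in either direction. Dusp4, an ERK and JNK phosphatase of the nucleus, fell by 0.41 from 4.58 ± 0.20 to 4.16 ± 0.15 (adjusted p = 0.0137), both under the array medians. Dusp10, which prefers p38 and JNK, fell by 0.29 from 4.85 ± 0.10 to 4.56 ± 0.13 (adjusted p = 0.0147), around the array medians. Over the alternatives its change ran from -0.39 to -0.08. A second Dusp10 probe set, under the filter, read 3.82 ± 0.12 and 3.87 ± 0.06 and did not pass (adjusted p = 0.648 over all probe sets with no filter). Dusp2, found mainly in immune cells, read 6.94, 6.57, 6.63 and 6.60 against 6.99, 6.92, 6.90 and 6.96. Its fall of 0.26 (adjusted p = 0.0347) was lost when any single array other than Meis1 deleted replicate 1 was left out (adjusted p between 0.0614 and 0.0917).

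Dusp6, the cytoplasmic ERK phosphatase often read as a gauge of ERK output, read 9.26, 8.96, 8.95 and 8.85 after the deletion and 9.25, 9.27, 9.17 and 9.17 without it. It did not pass (-0.21 ± 0.08, adjusted p = 0.0795), with the groups overlapping through Meis1 deleted replicate 1 alone. Without that array it was lower (-0.29, adjusted p = 0.00137), and with the bioB block the change was -0.25 (adjusted p = 0.0397). Dusp1, induced by stress and growth factors alike, read 7.97 ± 0.09 and 7.82 ± 0.04 and just missed the threshold (0.16 ± 0.06, adjusted p = 0.0533), although its groups did not overlap.

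**Figure D3:**
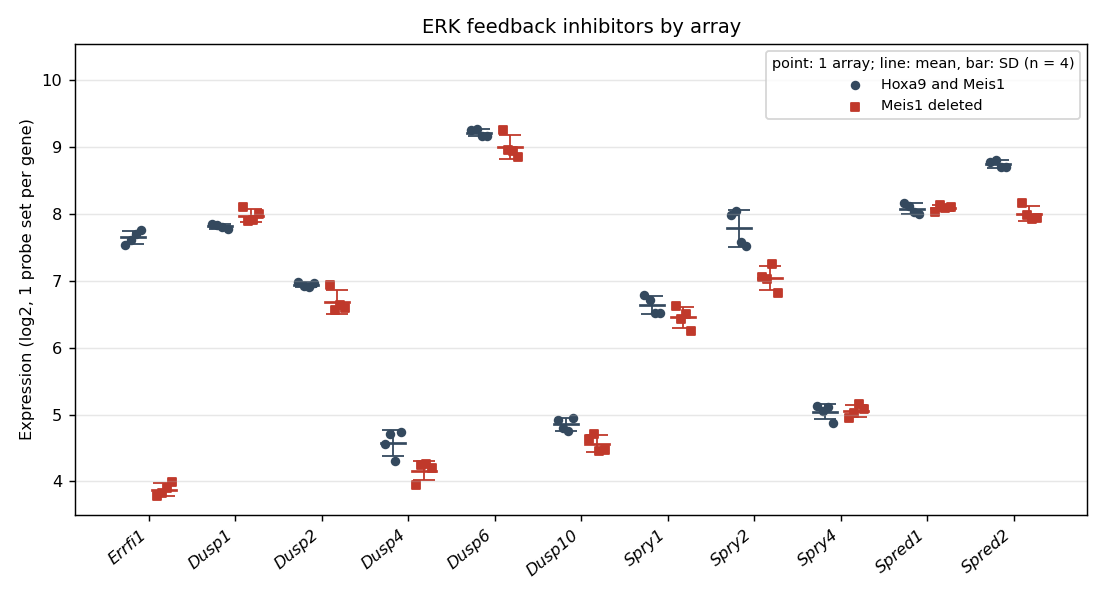
Log2 expression (y axis) of the 11 ERK feedback inhibitors on each array, with circles for Hoxa9 and Meis1 and squares for Meis1 deleted; lines are means and bars SDs over 4 arrays. Errfi1 drops from about 7.65 to 3.87, Spry2 and Spred2 sit lower after the deletion, and Spry4 and Spred1 overlap.

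ETS factors of the Pea3 group, which ERK signalling induces, gave no call. Etv5 read 6.12, 5.45, 5.46 and 5.49 against 5.62, 5.44, 5.45 and 5.46, so that 6 arrays lay between 5.44 and 5.49 and replicate 1 of each group stood higher (0.14 ± 0.14, adjusted p = 0.481). Etv4 lay under the filter, at 3.21 ± 0.07 and 3.10 ± 0.09.

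All 3 small Maf genes fell. These proteins lack an activation domain and pair with Fos, Nrf2 or Bach factors. Maff read 5.67, 5.61, 5.54 and 5.62 against 6.10, 6.15, 6.36 and 6.30 (-0.62 ± 0.07, adjusted p = 9.11e-05). Mafg fell by 0.43 from 9.19 ± 0.02 to 8.75 ± 0.07 (adjusted p = 1.11e-04) and Mafk fell by 0.34 from 7.40 ± 0.03 to 7.06 ± 0.19 (adjusted p = 0.0128). None of the 3 pairs of groups overlapped.

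The 3 Nr4a orphan receptors, immediate-early nuclear receptors, did not pass on their main probe sets. Nr4a1, which is readily induced in monocytes, read 7.01 ± 0.12 and 6.96 ± 0.10, with an interval of -0.12 to 0.22. The intervals were -0.22 to 0.03 for Nr4a2 and -0.16 to 0.19 for Nr4a3. All 5 Nr4a2 probe sets had negative changes, and 2 dim ones passed over all probe sets with no filter, at 4.20 ± 0.13 and 4.55 ± 0.06 (adjusted p = 0.00413) and at 3.86 ± 0.07 and 4.17 ± 0.16 (adjusted p = 0.0171), so the Nr4a2 probe sets do not give 1 answer.

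Zfp36l1, which binds AU-rich elements and speeds the decay of mRNAs, many of them from immediate-early and cytokine genes, rose strongly. It read 10.34, 10.48, 10.46 and 10.24 after the deletion and 8.58, 8.67, 8.34 and 8.39 without it. This was a 3.70-fold rise (1.89 ± 0.09, adjusted p = 2.43e-07), and a second probe set rose too (1.49 ± 0.21), with Meis1 deleted replicate 1 at 6.82 below the other 3 at 7.80 to 7.96. Its relative Zfp36l2, outside the member list, fell from 11.29 ± 0.08 to 10.65 ± 0.06 (-0.64 ± 0.05, adjusted p = 1.69e-05).

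Srf, Phlda1 and Ier2 fell. Srf, the gene of serum response factor, whose promoter is shown above with both CArG boxes, read 8.46, 8.23, 8.25 and 8.26 after the deletion and 8.94 ± 0.05 without it, where the lowest array was at 8.89 (-0.64 ± 0.06, adjusted p = 4.22e-05). A second Srf probe set did not pass (6.28 ± 0.03 and 6.42 ± 0.11, adjusted p = 0.128 over all probe sets with no filter). Phlda1, a pleckstrin homology protein linked to receptor signalling, read 6.43, 5.90, 6.26 and 6.35 against 7.74, 7.58, 7.69 and 7.64. It fell 2.69-fold (-1.43 ± 0.10, adjusted p = 6.81e-06), with more than 1 unit between the groups. Ier2, a small nuclear immediate-early protein, fell by 0.59 from 9.77 ± 0.04 to 9.18 ± 0.10 (adjusted p = 4.21e-05).

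A pair of tested genes of this last set rose. Ier3, a survival-linked product of NF-kB and ERK signalling, rose from 10.71 ± 0.04 to 11.05 ± 0.10 (0.35 ± 0.06, adjusted p = 0.00151). Csrnp1, a nuclear protein induced by axin, rose from 6.66 ± 0.15 to 7.05 ± 0.07 (0.39 ± 0.08, adjusted p = 0.00409). Ier5, under the filter and therefore untested in the main comparison, read 4.14 ± 0.09 and 3.80 ± 0.06 (0.34 ± 0.06, adjusted p = 0.00237 over all probe sets with no filter).

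Genes upstream of these members were counted on lists chosen for their place in the pathway, with earlier results of these data known. Each count is to be read against the 18.1% of all genes that rose and the 17.5% that fell, and is no test of a list. In the RAS to ERK cascade 4 of 26 rose and 4 fell (15.4% each), below both shares, with a median of 0.03. The docking protein Gab1 rose from 4.40 ± 0.21 to 5.62 ± 0.09 (1.22 ± 0.10, adjusted p = 1.32e-05) and the adaptor Grb2 from 9.10 ± 0.07 to 9.69 ± 0.06 (0.59 ± 0.05, adjusted p = 2.70e-05). The ERK-activated kinases Rps6ka3 (0.48 ± 0.06) and Mknk1 (0.48 ± 0.04) rose, and the scaffold Cnksr3 fell by 0.60 and the RAS GTPase activator Rasa2 fell by 0.28. The kinases Braf, Map2k1 and Map2k2 and the GTPase Nras did not pass, with changes of 0.04 ± 0.07, 0.11 ± 0.05, 0.01 ± 0.06 and 0.09 ± 0.07. Of receptors and ligands 6 of 16 rose (37.5%) and 3 fell (18.8%; median 0.01). The rises included Csf2rb2, an interleukin-3 receptor subunit (1.22 ± 0.07), Csf1r, the macrophage growth factor receptor (1.06 ± 0.08), Csf3r (1.04 ± 0.08), Csf2rb (0.40 ± 0.06) and Met (0.36 ± 0.06), and Flt3 fell by 0.80. Il3ra, another interleukin-3 receptor subunit, fell from 6.76 ± 0.13 to 6.43 ± 0.09 (-0.33 ± 0.07, adjusted p = 0.00655), with no overlap of the groups.

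Falls outnumbered rises in 2 of the 3 downstream lists, which were also chosen with earlier results known. Of ERK-regulated transcription factors 6 of 12 fell (50%) and 1 rose (8.33%; median -0.22). Erg fell by 1.35, Myc fell by 0.90, Ets2 fell by 0.64, and the serum response factor partners Elk4 and Elk3 fell by 0.43 and fell by 0.38. Ets1 was the rise (0.38 ± 0.10), a call lost without Hoxa9 and Meis1 replicate 3 (adjusted p = 0.0532) or replicate 4 (adjusted p = 0.0525). Of 32 further immediate-early genes 16 fell (50%) and 8 rose (25%; median -0.24). Per2, a clock gene, read 4.21 after the deletion and 5.97 without it (-1.76 ± 0.06); it passed the filter only through the untreated group, so its difference was partly built in and its size is uncertain (-0.62 with an offset of 64). The kinase gene Sgk1 fell by 1.09 and Plaur, the urokinase receptor, fell by 0.79, whereas the kinase gene Plk2 rose by 2.24 ± 0.12 (1.13 with the offset). Of 22 further feedback and output genes 5 rose and 5 fell (22.7% each; median 0.0010). The rises there included Kctd12 (1.23 ± 0.05), Emp1 (1.09 ± 0.07), the RAS pathway adaptor Dok1 (0.76 ± 0.05) and Rasa4, a RAS GTPase activator (0.77 ± 0.08). The phosphatase gene Dusp16 fell by 1.11 and the cyclin gene Ccnd3 fell by 0.26.

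**Figure D4:**
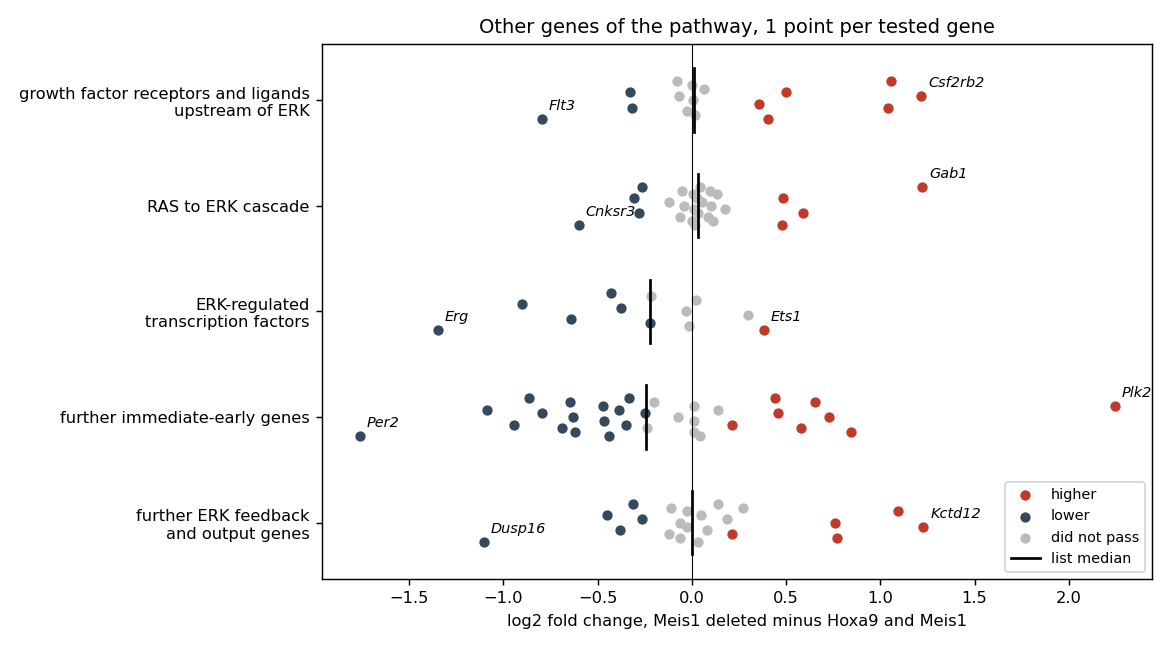
Each point is a tested gene of 1 of the 5 lists (y axis) at its log2 fold change (x axis), coloured by whether it passed the test and in which direction; black bars are list medians. The cascade genes cluster around 0, and the lists of ERK-regulated factors and further immediate-early genes have their medians at -0.22 and -0.24.

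Arrays differed in ways that the groups do not account for. The spiked bioB hybridisation control lay between 4.04 and 4.28 on 3 Meis1 deleted and 2 Hoxa9 and Meis1 arrays and between 6.43 and 6.61 on the other 3 (Meis1 deleted replicate 4, Hoxa9 and Meis1 replicates 3 and 4). With these sets of arrays as a block 7 members rose and 20 fell, where 18.2% of all genes rose and 17.7% fell. The 24 members that changed had the same direction within each set, although the high set holds a single Meis1 deleted array. Where the groups of a member do not overlap, any part of the arrays must give that direction. The agreement was therefore largely fixed in advance and adds little. The widest gap was that of Jund, at -1.07 within the low set and -0.72 within the high set. Errfi1 read -3.74 in both, Egr2 2.39 and 2.50, Fos 0.92 and 1.00, and Spry2 -0.91 and -0.74. The Gapdh signal of the 3′ end exceeded that of the 5′ end by 0.72 on Meis1 deleted replicate 1 and by -0.07 to 0.04 on the other deleted arrays, against -0.05 to -0.01 on the untreated arrays (two-sided exact permutation test over 70 assignments, p = 0.486). Beta-actin stood apart on the same array, at 0.67 against 0.32 to 0.38 on the other 7. On that array Etv5, Dusp2 and Srf stood above the other deleted arrays, and Hoxa9 read 8.95 against 9.97 to 10.07. The part of 3′ bias in these values was not tested. Meis1 read 5.02 ± 0.07 and 5.00 ± 0.05, and a second Meis1 probe set, under the filter, read 3.78 ± 0.07 and 3.64 ± 0.05 (adjusted p = 0.0972 over all probe sets with no filter). Neither was lower in the deleted group, and neither is known to lie in the viral cDNA, so the deletion is not checked by these data.

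**Figure D5:**
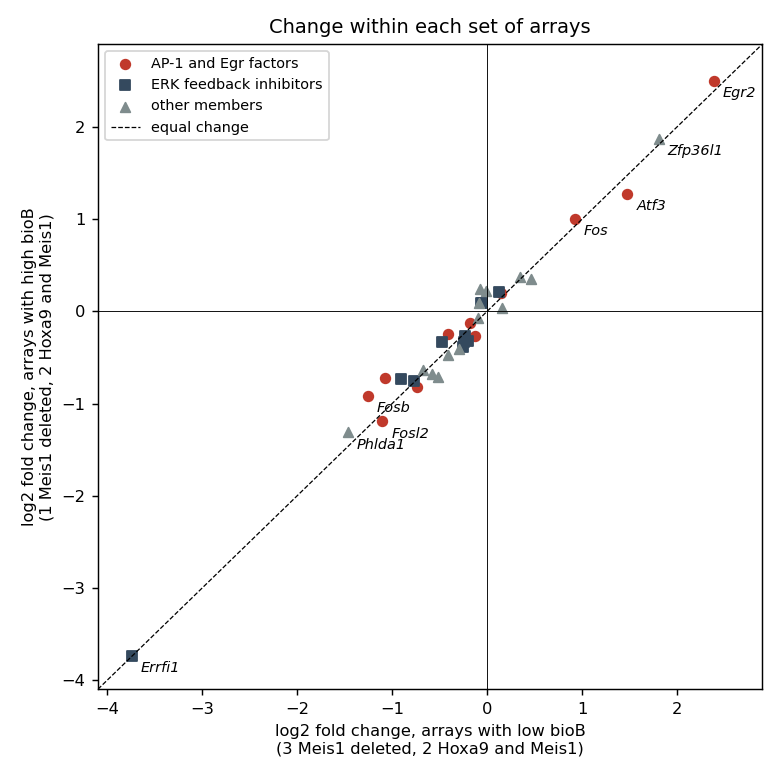
The log2 fold change of each tested member is compared between the 5 arrays with low bioB (x axis) and the 3 arrays with high bioB (y axis); the dashed line marks equal change. Points lie close to the line from Errfi1 at -3.74 to Egr2 above 2.

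Markers of maturing myeloid cells moved with these changes. Rises and falls were counted over tested genes and are to be read against the 18.1% of all genes that rose and the 17.5% that fell. Of 10 monocyte and macrophage markers 10 rose, and their summed level on a log2 scale ran from 13.66 to 13.70 after the deletion and from 11.42 to 11.51 without it. Of 10 late neutrophil markers 8 rose and 1 fell (14.58 to 14.62 against 13.81 to 13.88). Immature myeloid markers, which match the labelled cell type, were present in both groups (15.02 to 15.03 against 14.86), with 5 of 10 higher and 3 lower. In bulk RNA, more cells of a type and more RNA per cell cannot be told apart, and the part of maturation in the changes of the members was not tested. Other blood lineages were mostly near the floor: 0 of 5 lymphocyte genes changed, 1 of 4 erythroid genes rose, 1 of 5 mast cell and basophil genes rose and 2 fell (summed level 7.77 to 8.08 against 8.25 to 8.34), and only 1 of 8 fibroblast genes passed the filter. Of 4 megakaryocyte and platelet genes Pf4 and Ppbp rose, from 6.43 to 10.27 and from 5.99 to 9.43, while Itga2b read 5.49 with and 5.70 without the deletion and did not pass; the list's summed level was 10.90 to 11.01 against 7.76 to 7.91.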

How the data were processed

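Expression was measured on 8 one-colour Affymetrix arrays, with cRNA made from 100 ng total RNA each. The authors deposited 1 normalized value per probe set and array, taken to be log2 because values run from 2.65 to 13.22; array medians differ little (4.69 to 4.74). Per the submitters' processing notes MAS5 was used, with no role stated; the sources used here do not give how probe sets were summarised.

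Of 45037 non-control probe sets the lowest 40% by mean were left out, keeping 27022. Symbols came from GEO's platform annotation (28898 probe sets with 1 symbol, 551 with several, 15588 unnamed here). Each of 11836 genes was represented by its brightest probe set. Differences were tested with limma 3.58.1 in R 4.3.3, with the variance prior over kept probe sets and Benjamini-Hochberg adjustment over genes. Single probe sets were tested over all 45037 with no filter. Errors of levels are SDs over 4 arrays. Precision is limited by the number of arrays. The summed level of a marker list is the log2 of its summed linear values.

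On simulated data with 11836 genes of this comparison, limma called 17 of 50 genes given a log2 change of 0.25, 43 of 50 given 0.5, and 50 of 50 given 1 or 2, with 6 false calls. Only 50 genes were changed at each size, a far smaller share than the 35.5% of genes called in the data. The simulated noise was independent and held no bioB sets, so these rates may not carry over to the real comparison. Alternatives covered the filter, scaling, offset, probe set choice, eBayes options, array weights, blocks, bioB sets and each array left out. Promoter sequences are RefSeq's (GRCm38.p6). Members and lists were chosen with earlier results of these data known. All members, Meis1, Hoxa9, and up to 6 genes per pathway list with the smallest p and 3 per marker list with the highest mean were to be named; Nab1, Il3ra, Egfr, Erbb2, Erbb3, Braf, Map2k1, Map2k2 and Nras were named after their values were seen, for their role.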

Additional observations from a re-analysis of the deposited data

Results flagged for a closer look

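Single arrays stood apart from the other 3 of their group in 6 of 140 groups examined, over 70 genes, where chance gives about 5%. In 5 of the 6 the array was Meis1 deleted replicate 1, the one with the larger gap between the 3′ and 5′ ends of Gapdh (0.72). On it Etv5 read 6.12 against 5.45 to 5.49, Dusp2 read 6.94 against 6.57 to 6.63, and Srf read 8.46 against 8.23 to 8.26. Hoxa9 read 8.95 there against 9.97 to 10.07, and Emp1 read 7.77 against 7.62 to 7.63. Etv5 also stood apart on Hoxa9 and Meis1 replicate 1, at 5.62 against 5.44 to 5.46.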

How the results depend on the processing

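Over 24 alternatives, 1 of them chosen after seeing the data (the variance prior over genes alone), Errfi1, Egr2, Zfp36l1, Atf3, Fos, Fosb, Fosl1, Fosl2, Jund, Phlda1, Srf, Spry2, Spred2, Maff, Mafg, Ier2, Ier3 and Csrnp1 kept direction and call wherever tested. The replicate number as a block (replicate block) gave 3906 genes changed, 17 members lower and 6 higher, with Jun (adjusted p = 0.0504) and Egr1 (0.0552) lost and Egr3 gained (0.0491); same-numbered arrays deviated with correlations from -0.13 to 0.29, so the numbers are not shown to pair samples. Genes changed numbered 2114 within bioB set 1 and 2158 within bioB set 2, with fewer arrays each (set 2 has 1 deleted array, taken to vary like the untreated ones). Feedback inhibitors higher went from 0 to 1 (Dusp1) with the lowest 60% left out, scaling to the 75th percentile, an offset of 64, the mean of probe sets and the prior over genes alone. Receptors and ligands lower were 1 within set 1, and cascade genes lower were 2 within either set. ERK-regulated factors higher were 2 with quantile normalization, the mean of probe sets, the bioB block, set 2 and the prior over genes alone, 3 with the bioB block without Meis1 deleted replicate 1, 4 with each probe set alone, 0 within set 1, and 0 to 2 with single arrays left out; those lower were 3 within set 1. Further feedback genes with each probe set alone were 9 higher and 8 lower, and 3 lower within set 1. With each probe set alone Hbegf turned to -0.20 (adjusted p = 0.0447). The cause was not tested. Junb passed under 10 alternatives, with adjusted p from 0.00141 to 0.129 over all 24. Low levels, as of Errfi1 and Fosb after the deletion, limit the sizes of changes.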

Other observations

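Among the untreated arrays, several members, picked after their values were seen, were lower where bioB was high. Fosb read 5.56 and 5.60 on the arrays with low bioB and 5.19 on both with high bioB. Spry2 read 7.99 and 8.05 against 7.58 and 7.52, Jund 10.73 and 10.59 against 10.42 and 10.20, and Fos 6.85 and 6.83 against 6.57 and 6.60. Among the deleted arrays the one of high bioB was also the lowest for Spry2 (6.81 against 7.06, 7.03 and 7.26) and Fos (7.58 against 7.75, 7.73 and 7.81). For Fosb (4.27 against 4.42, 4.43 and 4.13) and Jund (9.59 against 9.52, 9.61 and 9.64) it lay among the others. Other members went the opposite way among the untreated arrays. Fosl2 read 9.39 and 9.39 with low bioB and 9.50 and 9.58 with high bioB, and Maff 6.10 and 6.15 against 6.36 and 6.30. How many members, or how many of all genes, differed in this way was not counted.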
